A study of Mus musculus with 54 samples.

Results

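Hox genes encode homeodomain transcription factors that lie in 4 clusters, and their order along a cluster follows the order in which they are active from head to tail. The genes described here are every gene of the deposited log2 CPM tables (CPM, counts scaled to library size) whose symbol is Hox, a cluster letter from a to d and a number. At postnatal day 5 (P5) they were 15 of 19235 listed genes, among them Hoxa2 to Hoxa6, Hoxb2 to Hoxb6, Hoxc4, Hoxc5, Hoxd3 and Hoxd4. The log2 CPM tables of P28 and 9 weeks, with 19432 and 17827 genes, listed 0 of them. At those ages the same 15 genes were followed in the deposited FPKM tables (a level per transcript length), which held 39 Hox genes at each age.

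In the embryo, Hox genes of low paralog number are switched on in the hindbrain and those of higher number further back, in the spinal cord. The midbrain and the first hindbrain segment, from which most of the cerebellum arises, lie in front of the Hox domains. The medulla and pons, which touch the cerebellum, keep Hox transcripts into later life, so that Hox reads in a cerebellar library can mark hindbrain tissue beyond the cerebellum. Hox proteins bind DNA together with Pbx and Meis proteins, retinoic acid turns the clusters on, and Polycomb complexes keep them silent.

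The study sequenced RNA of whole mouse cerebellum in 54 libraries. At P5 and 9 weeks it used total RNA, and at P28 poly-A RNA. RNase H2, of which Rnaseh2b makes one subunit, clears ribonucleotides built into DNA, while Atm is a kinase and p53 (Trp53) a transcription factor of the response to DNA damage. All mutants were labelled Nes-cre, a Cre recombinase under Nestin control that acts in the neural lineage, so that other cell types of the tissue keep the genes. P5 had 3 libraries of RnaseH2B Nes-cre (Rnaseh2b), 4 of RnaseH2B,Atm Nes-cre (Rnaseh2b/Atm), 4 of RnaseH2B,p53 Nes-cre (Rnaseh2b/p53), 3 of Atm Nes-cre (Atm), 3 of p53 Nes-cre (p53) and 3 of Control. P28 had 5 libraries each of Rnaseh2b, Rnaseh2b/Atm, Atm and Control, and 9 weeks had 7 of Rnaseh2b and 7 of Control. The labels do not say which alleles the Control animals carry, or whether each library is a separate animal, so tests measure only the spread between these libraries.

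Depth was 48.2 to 95.1 M reads in genes (M, mega) at P5, except 711 M in Rnaseh2b/p53 replicate 3, and 24.1 to 89.7 M at P28. Rnaseh2b transcripts at P5 averaged 2.01 ± 0.13, 1.91 ± 0.08 and 2.20 ± 0.08 log2 CPM in the Rnaseh2b, Rnaseh2b/Atm and Rnaseh2b/p53 libraries (SD, n = 3, 4 and 4), against 4.27 ± 0.46 in Control (SD, n = 3). Atm transcripts in the P28 Atm libraries averaged 4.79 ± 0.15 log2 CPM, against 4.83 ± 0.06 in Control (SD, n = 5 each), so that label was not seen in the transcript level. In P28 Rnaseh2b/Atm they averaged 4.05 ± 0.05 log2 CPM (SD, n = 5). Counts per gene cannot check the label if only some exons were deleted. Some P5 libraries stood apart in their tissue markers. A list of 16 granule and Purkinje cell genes, all read in every P5 library, summed to 278 CPM in Atm replicate 1 and 766 CPM in Control replicate 2, and to at least 1157 CPM elsewhere. The same pair of libraries had the highest midbrain list sums, 161 CPM in Atm replicate 1 and 118 CPM in Control replicate 2, and choroid plexus sums of 27.1 and 96.2 CPM. Atm replicate 2 also had a low choroid plexus sum, 65.1 CPM, and a midbrain sum of 117 CPM. Rnaseh2b replicate 3 had 504 CPM of cartilage and bone genes, against at most 42.3 CPM elsewhere.

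The promoters of Hoxa2, Hoxa5 and Hoxa6 are shown because these genes stand near the front, the middle and the back of the range of paralogs read at P5, and their balance differed between libraries. Each is the 250 bases before the RefSeq start (build GRCm38.p6), written along the gene's strand, and capitals mark motifs on either strand.
Hoxa2, chr6:52164832-52165081, minus strand: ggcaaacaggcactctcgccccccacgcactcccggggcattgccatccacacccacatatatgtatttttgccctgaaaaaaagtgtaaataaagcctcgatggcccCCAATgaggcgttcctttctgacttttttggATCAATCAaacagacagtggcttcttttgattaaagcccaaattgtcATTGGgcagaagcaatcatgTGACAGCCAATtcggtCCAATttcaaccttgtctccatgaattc
Hoxa5, chr6:52204588-52204837, minus strand: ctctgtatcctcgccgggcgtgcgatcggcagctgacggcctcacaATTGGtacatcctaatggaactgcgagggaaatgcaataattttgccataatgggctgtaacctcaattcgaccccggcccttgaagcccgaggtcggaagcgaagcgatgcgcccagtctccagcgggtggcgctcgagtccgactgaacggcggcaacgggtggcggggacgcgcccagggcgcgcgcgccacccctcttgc
Hoxa6, chr6:52208673-52208922, minus strand: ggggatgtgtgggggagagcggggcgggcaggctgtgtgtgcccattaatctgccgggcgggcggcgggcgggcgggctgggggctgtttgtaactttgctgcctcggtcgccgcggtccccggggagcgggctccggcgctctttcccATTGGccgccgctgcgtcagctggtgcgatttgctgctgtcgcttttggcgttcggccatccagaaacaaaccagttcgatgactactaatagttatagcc
The motifs searched were the Hox-Pbx pair TGATTNAT, the Meis site TGACAG, the homeodomain core TAATTA, the TATA box TATAAA and the CCAAT box. In the Hoxa2 window the Hox-Pbx letters occurred once, on the reverse strand as ATCAATCA, beside a Meis match and 4 CCAAT matches, one of them next to the Meis letters. Hoxa5 and Hoxa6 each held 1 CCAAT match. Of the 8 members with an entry, 5 held CCAAT and 1 held TGATTNAT, while these occurred in 33.8% and 2.82% of the 32851 promoters in the table. The Meis site was in 2, the homeodomain core in 0 and the TATA box in 1 of the 8, against 15.9%, 4.84% and 12.4% of all promoters. A match describes letters only, and no factor was measured here.

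Hox reads at P5 differed far more between libraries than between genotypes. The 15 genes summed to 37.0, 81.4 and 12.9 CPM in Rnaseh2b, to 35.7, 49.5, 0.927 and 2.98 CPM in Rnaseh2b/Atm, and to 3.94, 0.529, 9.84 and 15.5 CPM in Rnaseh2b/p53. They summed to 8.74, 2.20 and 6.04 CPM in Atm, to 0.324, 3.20 and 10.3 CPM in p53, and to 0.275, 8.64 and 22.0 CPM in Control. The highest library, Rnaseh2b replicate 2, had 296 times the sum of the lowest, Control replicate 1, whose sum rested on 20 reads. Within Control alone the highest sum was 79.9 times the lowest, within Rnaseh2b/Atm 53.4 times and within Rnaseh2b 6.33 times. Group means were 43.8 ± 34.8 CPM in Rnaseh2b, 22.3 ± 24.2 in Rnaseh2b/Atm, 7.46 ± 6.61 in Rnaseh2b/p53, 5.66 ± 3.29 in Atm, 4.62 ± 5.15 in p53 and 10.3 ± 10.95 in Control (SD, n = 3, 4, 4, 3, 3 and 3). All groups but Rnaseh2b overlapped with each of the others, and Rnaseh2b overlapped with Rnaseh2b/Atm, Rnaseh2b/p53 and Control. In whole tissue, fewer Hox-positive cells and less Hox RNA per cell cannot be told apart.

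**Figure D1:**
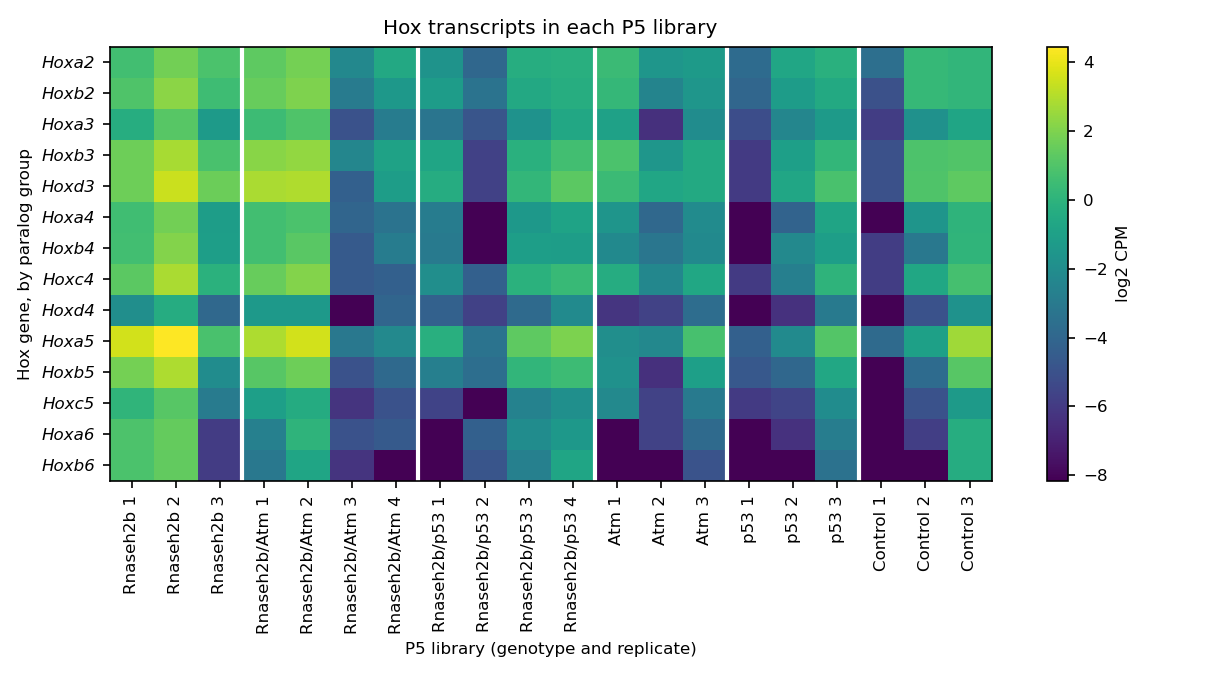
Log2 CPM (colour) of 14 of the 15 Hox genes, ordered by paralog group, in each of the 20 P5 libraries, grouped by genotype with Control at the right. Columns differ as wholes: Rnaseh2b replicate 2 is bright and Control replicate 1 dark in nearly every row, while both kinds of column occur within one genotype.

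Paralog groups 2 and 3 mark the second and more posterior segments of the hindbrain. Hoxa2, which patterns the second segment and its neural crest, had 1.52, 3.37 and 1.84 CPM in Rnaseh2b, against 0.0825, 1.20 and 1.09 CPM in Control. It had 2.47, 3.47, 0.206 and 0.671 CPM in Rnaseh2b/Atm, 0.309, 0.0623, 0.797 and 0.861 in Rnaseh2b/p53, 1.35, 0.347 and 0.403 in Atm, and 0.0719, 0.609 and 0.908 in p53. All 3 Rnaseh2b values lay above all Control values, and the other genotypes overlapped with Control. Hoxb2, its paralog, had 1.95, 4.80 and 1.42 CPM in Rnaseh2b and 2.82, 4.03, 0.131 and 0.369 in Rnaseh2b/Atm, against 0.0275, 1.23 and 1.10 in Control. In the other genotypes Hoxb2 ran from 0.0599 to 1.18 CPM. Rnaseh2b was again above every Control library, with the smallest gap between 1.42 and 1.23 CPM.

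Hoxb3 and Hoxd3 act in the caudal hindbrain. Hoxb3 had 3.15, 6.96 and 1.79 CPM in Rnaseh2b, 4.66, 5.23, 0.187 and 0.539 in Rnaseh2b/Atm, and 0.601, 0.0156, 0.888 and 1.54 in Rnaseh2b/p53, against 0.0275, 1.89 and 1.998 in Control. It had 1.83, 0.339 and 0.6999 CPM in Atm and 0.0120, 0.478 and 1.12 in p53. The lowest Rnaseh2b library lay below the upper pair of Control libraries. Hoxd3 had 3.17, 10.7 and 3.04 CPM in Rnaseh2b, 7.28, 7.75, 0.0468 and 0.444 in Rnaseh2b/Atm, and 0.785, 0.0156, 1.14 and 2.37 in Rnaseh2b/p53, against 0.0275, 1.95 and 2.51 in Control. It had 1.33, 0.621 and 0.6999 CPM in Atm and 0.0120, 0.617 and 1.76 in p53. For Hoxd3 the Rnaseh2b libraries did not overlap with Control. Hoxa3, a paralog also needed for the thymus and the glossopharyngeal region, ranged from 0.00806 CPM, 1 read, in Atm replicate 2 to 2.24 CPM in Rnaseh2b replicate 2.

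Paralog group 4 marks the most caudal hindbrain and the neck. Hoxc4 had 2.37, 7.29 and 0.920 CPM in Rnaseh2b, 2.83, 4.25, 0.0374 and 0.0473 in Rnaseh2b/Atm, and 0.259, 0.0467, 0.918 and 1.25 in Rnaseh2b/p53, against 0.0138, 0.626 and 1.65 in Control. Hoxa4 had 1.496, 3.34 and 0.447 CPM in Rnaseh2b and 1.57, 1.86, 0.0562 and 0.0945 in Rnaseh2b/Atm, against 0, 0.328 and 1.04 in Control. Hoxb4 had 1.57, 4.24 and 0.460 CPM in Rnaseh2b and 1.53, 2.33, 0.0374 and 0.132 in Rnaseh2b/Atm, against 0.0138, 0.114 and 1.074 in Control. In each of these genes Control replicate 3 exceeded Rnaseh2b replicate 3, and 2 of 4 Rnaseh2b/Atm libraries exceeded all Control libraries. In Rnaseh2b/p53, Atm and p53, Hoxa4 reached at most 0.579 CPM and Hoxb4 at most 0.461 CPM. Hoxd4 stayed at or under 84 reads in any library and had 0 reads in 3.

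Paralog groups 5 and 6 belong to the spinal cord and its border with the medulla. Hoxa5, a regulator of respiratory and neck motor circuits, had the highest mean FPKM of the 15, 2.62 over the 20 libraries. It had 12.03, 21.8 and 1.78 CPM in Rnaseh2b, 7.46, 12.2, 0.112 and 0.208 in Rnaseh2b/Atm, and 0.868, 0.0934, 2.47 and 3.94 in Rnaseh2b/p53, against 0.0688, 0.498 and 6.29 in Control. In Atm it had 0.260, 0.202 and 1.73 CPM, and in p53 0.0479, 0.226 and 2.10 CPM. One library carried the upper end of each of Control, Atm and p53. Hoxb5 had 3.56, 7.50 and 0.243 CPM in Rnaseh2b and 2.28, 3.19, 0.0281 and 0.0662 in Rnaseh2b/Atm, against 0, 0.0712 and 2.24 in Control. Its range of 11.1 log2 units was the widest of the 11 Hox genes tested. Hoxa6, a more posterior gene, had 1.92, 2.77 and 0.0128 CPM in Rnaseh2b and 0.155, 1.02, 0.0281 and 0.0378 in Rnaseh2b/Atm, against 0, 0.0142 and 0.794 in Control. It had 0 reads in 4 of the 20 libraries, and Hoxb6, its paralog, in 8.

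Libraries differed in how their Hox reads were spread over paralog groups. Of all reads in the 39 Hox genes, those of paralog groups 5 to 13 made up 57.7% (95% Wilson interval 56.3 to 59.0) in Rnaseh2b replicate 1, 46.5% (45.5 to 47.6) in replicate 2 and 16.9% (14.7 to 19.3) in replicate 3. In Control they made up 55.9% (39.5 to 71.1) in replicate 1, 7.33% (5.52 to 9.67) in replicate 2 and 49.2% (47.2 to 51.2) in replicate 3. Thus Control replicates 2 and 3 differed well beyond counting error. Libraries of similar sum differed too: Rnaseh2b/p53 replicate 3, at 9.84 CPM, had 42.9% (41.9 to 43.9), and Control replicate 2 was at 8.64 CPM. Rnaseh2b/Atm ran from 12.5% to 36.1%, Rnaseh2b/p53 from 27.6% to 56.1%, Atm from 10.01% to 41.8% and p53 from 12.3% to 56.8%. The intervals cover counting error only, and the shares of Control replicate 1, p53 replicate 1 and Rnaseh2b/p53 replicate 2 rest on 34, 44 and 41 reads.

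**Figure D2:**
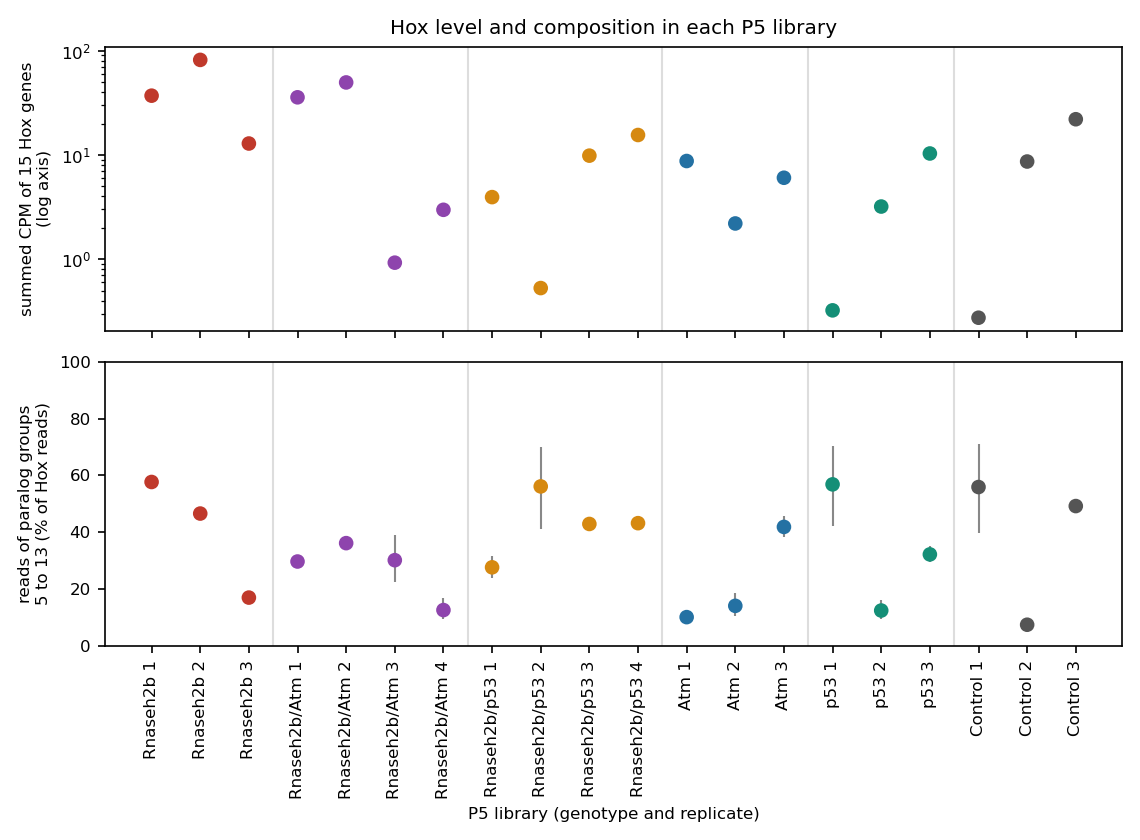
Top, summed CPM of the 15 Hox genes (log axis); bottom, percent of reads in 39 Hox genes that fell in paralog groups 5 to 13, with 95% Wilson intervals, for each P5 library (1 point each, coloured by genotype). Sums span 0.275 to 81.4 CPM, and shares run from 7.33% to 57.7% with low and high shares inside most genotypes.

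Hoxa5 against Hoxa2 gives the same contrast in 2 genes. Hoxa5 took 88.8% of the reads of the pair in Rnaseh2b replicate 1 and 86.6% in replicate 2, but 49.1% (43.3 to 54.9) in replicate 3. In Control it took 45.5% (21.3 to 72.0) in replicate 1, 29.4% (22.0 to 38.1) in replicate 2 and 85.2% (82.6 to 87.5) in replicate 3. The lowest share was 16.2% in Atm replicate 1. Per length, the ratio of Hoxa5 to Hoxa2 FPKM ran from 0.249 in Atm replicate 1 to 10.2 in Rnaseh2b replicate 1. Hoxa2 differed little between Control replicates 2 and 3, at 1.20 and 1.09 CPM, while Hoxa5 had 0.498 and 6.29 CPM.

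**Figure D3:**
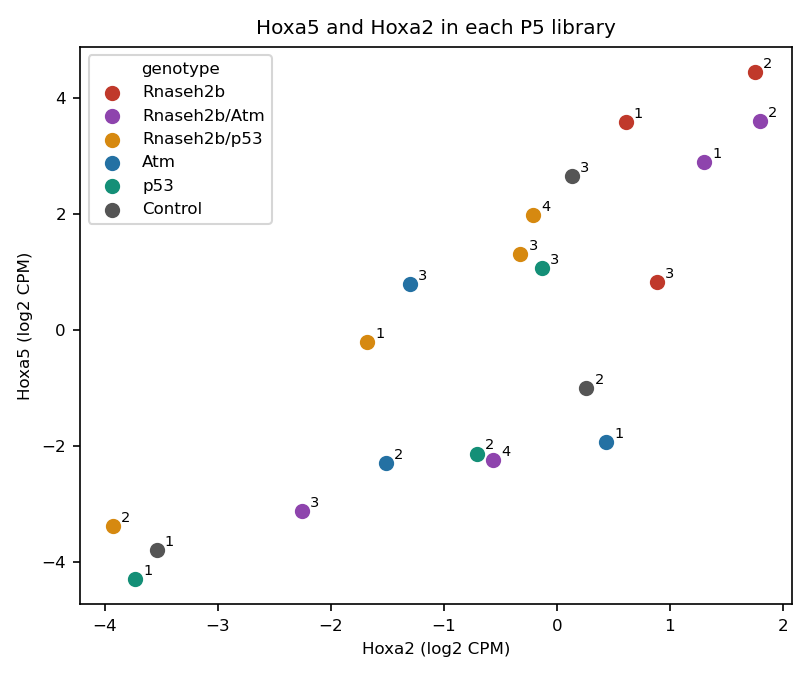
Hoxa5 against Hoxa2 (both log2 CPM) in the 20 P5 libraries, coloured by genotype and numbered by replicate. Most libraries lie along a diagonal, and Atm replicate 1, Control replicate 2 and Rnaseh2b replicate 3 have high Hoxa2 with comparatively low Hoxa5.

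Further Hox genes gave few reads at P5. Hoxb7 had 160 and 138 reads in Rnaseh2b replicates 1 and 2, against 50 in Control replicate 3 and at most 1 in the other Control libraries. Hoxb8, a spinal cord gene, had 85 and 41 reads in the same Rnaseh2b libraries, against at most 7 in Control. Hoxd8 reached 60 reads in the library of 711 M reads and at most 15 elsewhere, and Hoxd1, of the front end of its cluster, reached 35 reads. The 16 genes of paralog groups 9 to 13 had 123 reads over all 20 libraries, with at most 20 in one library, for Hoxd13 in the library of 711 M reads. Hoxb1, the mark of the fourth hindbrain segment, had 1 read in all.

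The Hox genes varied together from library to library. Over the 20 libraries the 55 pairs of tested members had Spearman correlations of 0.55 (Hoxa2 with Hoxa6) to 0.98 (Hoxa4 with Hoxc4), with a median of 0.92. The libraries share one depth for all genes, and neighbours in a cluster can share reads: 8 of the 15 overlap another Hox gene in the RefSeq annotation, such as Hoxa3 with Hoxa4, Hoxa5 and Hoxa6. The within-group standard deviation of the 11 tested members was 1.67 to 3.10 log2 units, with a median of 2.70, against a median of 0.157 over 15421 tested genes. By that spread they ranked between 8 and 65 of the 15421. The share of their variance that lay between genotypes was 20.9% to 30.3% (median 26.4%), against a median of 43.9% for all tested genes. With 6 groups and 20 libraries, a gene with no difference between groups has a mean share of 26.3%.

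The non-Hox genes whose level followed the Hox sum most closely over the 20 P5 libraries, by Spearman correlation among 13180 genes, were led by Hoxb3os (0.92), a noncoding gene inside the Hoxb cluster that overlaps Hoxb2 and Hoxb3 and can share their reads. Next were Slc6a5 (0.91), the glycine transporter of inhibitory neurons, and Prrxl1 (0.90), a homeodomain factor of sensory relay neurons. Elovl7 (0.87) followed, and Mal (0.87), Mog (0.86) and Ermn (0.84), which are myelin genes, were also among the closest 8. Slc6a5 ran from 2.35 to 5.79 log2 CPM and Mog from -2.13 to 3.98 log2 CPM. Among summed marker lists the correlation with the Hox sum was 0.94 for noncoding genes of the clusters, 0.58 for medulla and pons, 0.41 for skeletal muscle, -0.60 for midbrain and 0.01 for granule and Purkinje cells. These are descriptions over libraries that share genotypes and depths. The medulla and pons list summed to 32.1, 121 and 81.1 CPM in Rnaseh2b, against 14.04, 88.8 and 38.1 CPM in Control. Midbrain genes ran from 25.0 to 66.7 CPM in Rnaseh2b and from 65.3 to 118 CPM in Control.

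The design asks whether each genotype changed a gene relative to Control, and whether loss of Rnaseh2b did so on an Atm or p53 mutant background. Of the 15 Hox genes, 11 reached 1 CPM in at least 3 libraries and were tested by limma over 15421 genes (called at a Benjamini-Hochberg adjusted p below 0.05), and Hoxb6, Hoxc5 and Hoxd4 were among those that did not. No Hox gene was called in any of the 7 comparisons, and 0 of 11 had an unadjusted p below 0.05 in each, while 2.82% (Atm against Control) to 28.1% (Rnaseh2b/Atm against Control) of all genes had one. Over all genes, 0.681% were called in Rnaseh2b against Control, 0% in Atm against Control, 0.175% in p53 against Control, 9.86% in Rnaseh2b/Atm against Control, 0.428% in Rnaseh2b/p53 against Control, 9.5% in Rnaseh2b/Atm against Atm and 0.188% in Rnaseh2b/p53 against p53. Since Atm replicate 1 and Control replicate 2 stood apart, the fit was repeated without both: Hox calls stayed at 0, while calls over all genes in Rnaseh2b/Atm against Control went up to 6380, against 1520 with them.

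In Rnaseh2b against Control the 11 log2 fold changes ran from 2.13 to 4.48, with a median of 3.27, beside a median of 0.01 over all genes. Hoxa3 and Hoxa6 would not have passed the filter without the Rnaseh2b libraries and had no Control library at 1 CPM, so their sign was favoured by the choice, and the median is only a description. The standard errors were as wide as 1.27 to 2.38, against a median of 0.126 over all genes. Hoxb5 had 4.48 ± 2.32 (limma log2 fold change and SE, adjusted p = 0.427), Hoxa5 3.67 ± 2.03 (adjusted p = 0.464) and Hoxb2 2.77 ± 1.47 (adjusted p = 0.439). Hoxa2 had 2.13 ± 1.27 (adjusted p = 0.508) and Hoxd3 3.14 ± 2.21 (adjusted p = 0.597). Hoxa2, Hoxb2 and Hoxd3 lay higher with no overlap between the groups, and the other 8 overlapped. Of all 15421 tested genes 12.1% did not overlap between these libraries, and 6.46% lay higher in Rnaseh2b with no overlap. Leaving out Control replicate 1 gave a median of 1.16, and leaving out Rnaseh2b replicate 2 gave 2.50. Skeletal muscle genes moved with the same comparison: 5 of 9 tested rose (0.298% of all genes did), among them Myog at 5.79 ± 1.22 (limma adjusted p = 0.0398), and the list summed to 29.5, 26.8 and 42.7 CPM in Rnaseh2b, against 6.04, 7.48 and 7.59 CPM in Control. That count was 0 without Control replicate 2 or Rnaseh2b replicate 3, 1 without Control replicate 3, 2 without Rnaseh2b replicate 2 and 3 without Rnaseh2b replicate 1. Over 4 other settings it was 2 to 5. In Rnaseh2b/p53 against p53, where the Hox median was 0.81, 5 of 9 muscle genes rose too (0.123% of all genes did). Their part in the Hox values was not tested.

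The other comparisons gave smaller medians. In Rnaseh2b/Atm against Control the median Hox log2 fold change was 1.32, with Hoxb5 highest at 2.09 ± 2.17 (limma adjusted p = 0.546). Without Control replicate 1 it was -0.42. In Rnaseh2b/Atm against Atm the median was 1.05, and Hoxa6 was highest at 2.83 ± 2.23 (limma adjusted p = 0.528). Hoxa6 passed the filter on 3 libraries at 1 CPM, 2 of Rnaseh2b and 1 of Rnaseh2b/Atm. Its sign and rank against Atm were thus favoured by the choice. In Rnaseh2b/p53 the median was 0.81 against p53, and -0.78 there without p53 replicate 1. Rnaseh2b/p53 against Control had 0.17, and -1.57 without Control replicate 1, -0.10 without Rnaseh2b/p53 replicate 3 and -0.49 without replicate 4. Atm against Control had 0.44, and -1.47 without Control replicate 1. In p53 against Control it was -0.97, 0.68 without p53 replicate 1 and 0.51 without Control replicate 3. The comparisons against Control share the same 3 libraries, one of which, replicate 1, was the lowest of all 20.

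**Figure D4:**
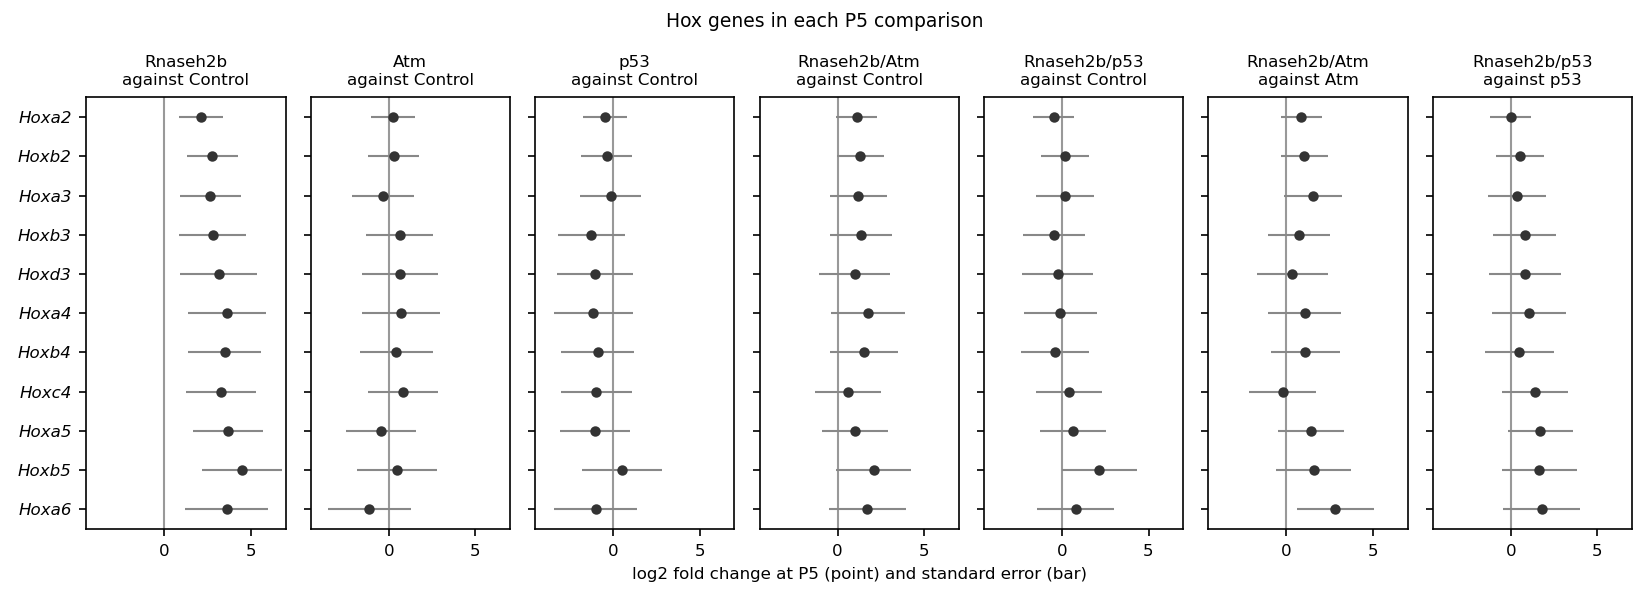
Log2 fold change (point) and limma standard error (bar) of the 11 tested Hox genes in each of the 7 P5 comparisons, with 0 as a grey line. Rnaseh2b against Control has all 11 points right of 0 at 2.13 to 4.48 with errors of 1.27 to 2.38, and in the other comparisons most bars cross 0.

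Known cofactors and regulators of Hox genes were looked up as lists. Of 9 Pbx, Meis and Pknox genes, whose products bind DNA with Hox proteins, 0 were called at P5 in the comparisons against Control. Among 15 tested genes of retinoic acid supply and response and of hindbrain segments, 5 rose in Rnaseh2b/Atm against Control, where 6.48% of all genes rose, among them Rara and Rarg (retinoic acid receptors) and Aldh1a2 (a retinoic acid synthase). Rara rose by 0.51 ± 0.10 (limma adjusted p = 0.00429) and Aldh1a2 by 0.76 ± 0.18 (adjusted p = 0.0168). The count was 2 without Control replicate 3 or Rnaseh2b/Atm replicate 2, and 3 without Control replicate 1 or Rnaseh2b/Atm replicate 3. In the same comparison 4 of 10 genes of meninges and fibroblasts rose, and that list summed to 558 to 796 CPM in Rnaseh2b/Atm, against 416 to 488 CPM in Control, and its part was not tested. In Rnaseh2b against Control 0 of the 15 were called. Of 21 Polycomb and Trithorax genes 1 was called in Rnaseh2b/Atm against Control, where 3.38% of all genes fell. This was Rnf2, which fell by 0.28 on the log2 scale (SE 0.08, limma adjusted p = 0.0347). Without Atm replicate 1 and Control replicate 2, 11 of the 21 were lower and 2 higher. Calls over all 15421 genes also went up in that fit, to 6380, against 1520 in the main fit. Rnf2 or any other was not called lower (0 of 21) with the replicate block, or without Control replicate 1 or 3 or Rnaseh2b/Atm replicate 1 or 2. The 10 genes that flank the clusters, 2 noncoding genes within them, 12 medulla and pons genes and 9 midbrain genes had 0 called in Rnaseh2b and Rnaseh2b/Atm against Control. Muscle genes rose in 7 of 9 in Rnaseh2b/Atm against Control.

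At P28 Hox reads were close to 0 in most libraries. Recovered from FPKM, the reads of the 15 genes summed to 11, 10, 12, 11 and 281 in Rnaseh2b, 105, 21, 37, 37 and 79 in Rnaseh2b/Atm, 13, 0, 12, 21 and 22 in Atm, and 22, 15, 6, 20 and 14 in Control. As CPM, scaled to the library size behind the deposited log2 CPM, they were 0.167, 0.148, 0.390, 0.454 and 3.25 in Rnaseh2b, 1.16, 0.405, 0.569, 0.579 and 1.95 in Rnaseh2b/Atm, 0.409, 0, 0.440, 0.333 and 0.330 in Atm, and 0.257, 0.227, 0.192, 0.320 and 0.245 in Control. Rnaseh2b replicate 5 stood highest and carried the highest value of 11 members. All 5 Rnaseh2b/Atm libraries lay above all Control libraries, the closest at 0.405 CPM (21 reads) against 0.320 CPM (20 reads). In that comparison 19.2% of all features were called higher on the FPKM scale, and the share without overlap was not counted. Atm replicates 1 and 3, at 0.409 and 0.440 CPM, lay above Rnaseh2b/Atm replicate 2. Rnaseh2b and Control overlapped. Group means were 0.883 ± 1.33 in Rnaseh2b, 0.933 ± 0.638 in Rnaseh2b/Atm, 0.302 ± 0.176 in Atm and 0.248 ± 0.047 in Control (SD, n = 5 each). The 0 in Atm replicate 2, of 30.7 M reads, allows up to 3 reads.

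Reads of Hoxb3 were 2, 0, 2, 1 and 42 in Rnaseh2b, 10, 1, 2, 6 and 18 in Rnaseh2b/Atm and 4, 0, 2, 4 and 1 in Atm, against 4, 3, 2, 0 and 2 in Control. Hoxa2 had 2, 1, 0, 1 and 38 in Rnaseh2b and 8, 2, 2, 4 and 10 in Rnaseh2b/Atm, against 3, 3, 1, 1 and 2 in Control. One library thus held nearly all Rnaseh2b reads of these genes. In that library groups 5 to 13 made up 15.3% (11.7 to 19.7) of Hox reads, and Hoxa5 had 17 reads. Hoxd1 reached 17 reads there, and the 16 genes of groups 9 to 13 had 83 reads over the 20 libraries. These P28 genes were picked for their values.

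With no Hox gene in the P28 log2 CPM table, differences were tested by limma on log2(FPKM + 0.1) over 34589 features, a scale that shrinks the change of low genes. No Hox gene was called in Rnaseh2b against Control or Atm against Control, where 0.867% and 0.633% of features were called. At an unadjusted p below 0.05 there were 3 of 15 in Rnaseh2b and 0 in Atm, where 14.4% and 11.02% of features had one. In Rnaseh2b/Atm 1 of 15 was called higher against Control (34.5% of features called, 19.2% higher) and against Atm (33.2% called, 18.4% higher), a share under the background. Against Atm the count was 0 without Atm replicate 2 or 3 or without Rnaseh2b/Atm replicate 1, 2, 4 or 5. The median difference of the 15 was 0.10 against Control and 0.09 against Atm, with 15 positive in each, beside medians of -0.01 and -0.06 over all features. Centred on the library median, they were -0.08 and -0.16. Deposited P28 FPKM is not 0 where reads are 0.

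Hox regulators at P28, tested by limma on the log2 CPM of 16530 genes, changed mostly in Rnaseh2b/Atm against Control, where 31.5% of all genes rose and 32.1% fell. Of 21 Polycomb and Trithorax genes 19 fell, among them Eed by 0.68 ± 0.06 (limma adjusted p = 1.5e-08) and Ezh2 by 0.55 ± 0.07 (adjusted p = 3.36e-06), which are parts of the complex that methylates histone H3. Suz12, the third core part, had -0.15 ± 0.11 (adjusted p = 0.229). Of 14 retinoic acid and segment genes 9 rose and 1 fell, with Aldh1a2 at 0.99 ± 0.12 (adjusted p = 7.66e-07). Of 9 cofactors 3 rose and 4 fell, with Meis2 at 2.67 ± 0.49 (adjusted p = 0.00011) and Meis1 at -0.78 ± 0.14 (adjusted p = 8.09e-05). In Rnaseh2b against Control, where 5.21% of genes were called, 2 of 21 Polycomb and Trithorax genes fell (Pcgf2 and Cbx7), Pbx3 rose and Meis3 fell. The Polycomb count was 0 without Rnaseh2b replicate 1 or 2 or Control replicate 5, and 1 without Rnaseh2b replicate 3 or 4 or Control replicate 1 or 4. The count of cofactors that fell was 0 with the replicate block, 2 without Control replicate 2, and 0 when any other library but Rnaseh2b replicate 4 was left out. Beside the Rnaseh2b/Atm changes, the granule and Purkinje list summed to 3759 to 6633 CPM in Rnaseh2b/Atm, against 9086 to 10310 CPM in Control, and all 10 genes of meninges and fibroblasts rose, from a list that summed to 666 to 889 CPM in Rnaseh2b/Atm, against 235 to 359.8 CPM in Control. Of 6 tested midbrain genes 5 rose, and that list summed to 51.4 to 95.7 CPM in Rnaseh2b/Atm, against 14.4 to 21.5 CPM in Control. Muscle genes summed to 37.9 to 57.3 CPM in Rnaseh2b/Atm, against 20.7 to 33.5 CPM in Control. Of 5 tested muscle genes 2 rose and 1 fell, with a median log2 fold change of 0.08. The part of these lists in the changes was not tested. Of 3 tested medulla and pons genes, Tlx3 and Lbx1 fell in Rnaseh2b/Atm. That list summed to 8.13 to 15.4 CPM in Rnaseh2b/Atm and to 12.7 to 17.1 CPM in Control, so the groups overlapped.

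At 9 weeks the libraries carry number codes in their labels that fall into 11 to 16 (replicates 1 to 3 of each group) and 50 to 58 (replicates 4 to 7). The deposited FPKM of these 2 sets had equal means for each Hox gene, to within 6.67e-10, and 30976 values of the table were negative, so that levels have no true zero and are given above the lowest library of the same code set. So measured, the 15 genes summed to 0.216, 12.5 and 8.09 FPKM in Rnaseh2b replicates 1 to 3, against 2.72, 8.42 and 0.174 FPKM in Control replicates 1 to 3. In codes 50 to 58 they summed to 0.0621, 0.0697, 0.0742 and 0.400 FPKM in Rnaseh2b, against 0.0582, 0.133, 0.0633 and 0.0671 FPKM in Control. Hox reads above the floor were thus found mainly in 3 libraries of codes 11 to 16, of which 2 were Rnaseh2b and 1 Control.

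Hoxa5 was 0.0155, 3.81 and 2.20 FPKM above the lowest in Rnaseh2b replicates 1 to 3, against 0.658, 3.17 and 0 in Control replicates 1 to 3. Its range was 3.81 FPKM in codes 11 to 16 and 0.0454 FPKM in codes 50 to 58. Hoxa6 was 0, 0.915 and 0.293 FPKM above the lowest in Rnaseh2b, against 0.0509, 0.109 and 0 in Control, and Hoxa2 was 0.0592, 0.492 and 0.394 FPKM, against 0.0188, 0.144 and 0. Rnaseh2b and Control overlapped for 15 of 15 genes in both code sets, while 18.6% of all features in codes 11 to 16 and 5.25% in codes 50 to 58 did not overlap. In a two-sided exact permutation of genotype within code sets (1400 arrangements), p ran from 0.13 to 0.85, the highest for Hoxa4, and 0 of 15 were below 0.05. In codes 50 to 58, Hoxc5 and Hoxd4 were tied at the lowest value in all 8 libraries. Hoxa4, Hoxa6, Hoxb3, Hoxb6 and Hoxc4 were tied there in 7 of 8. With so many ties, p could not fall below 0.05 for these genes, so the test could not decide for them. Ties also fixed their overlap in codes 50 to 58, and that of Hoxa5 and Hoxb5, tied in 6 of 8. For all of these genes the overlap there is no result to set against the 5.25%. For Hoxa5 the mean Rnaseh2b minus Control difference was 0.732 FPKM within codes 11 to 16 and 0.0054 FPKM within codes 50 to 58, with an exact permutation p of 0.621 over both sets.

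**Figure D5:**
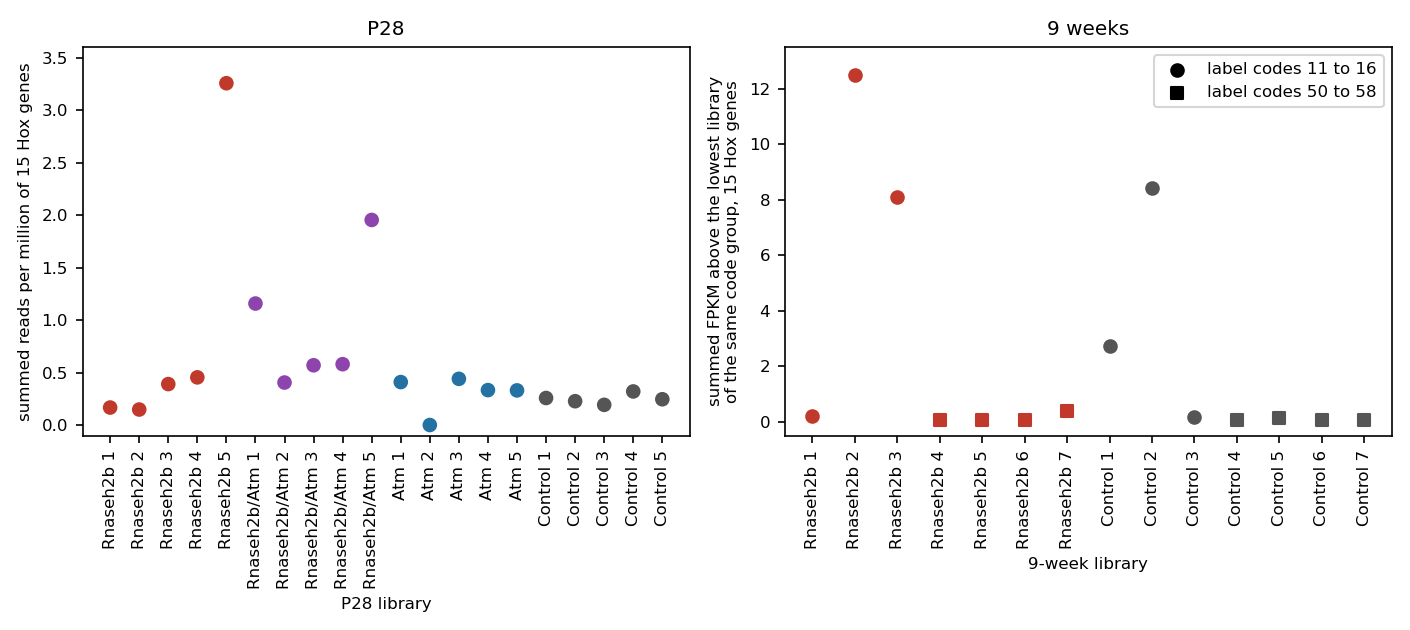
Left, summed CPM of the 15 Hox genes in each P28 library; right, their summed FPKM above the lowest library of the same code set in each 9-week library (circles, codes 11 to 16; squares, codes 50 to 58), coloured by genotype. At P28 Rnaseh2b replicate 5 reaches 3.25 and Control stays at or under 0.320, and at 9 weeks 3 libraries of codes 11 to 16 reach 8.09 to 12.5 FPKM.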

How the data were processed

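The members, gene lists and most tests were chosen with earlier results of these data known. Per the labels, RNA was taken with TRIzol, made into libraries with a TruSeq stranded kit and read on a HiSeq 2000. The tools named per the submitters' processing notes are BWA, STAR, HTSeq, Trim Galore and limma, with build mm9. Which step each did, its version and its strand setting are not given in the sources used here.

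The authors deposited log2 CPM per gene. At P5 the library size behind them included reads in no feature (19.7% to 31.8%), and this row was left out of the tests. Recovered reads came out whole in 100% of P5 and P28 values under 2000 reads, within 0.01, with a mean prior of 0.5 read, and CPM here is such reads scaled to that size. The authors also deposited FPKM, from which reads of Hox genes missing from log2 CPM were recovered. On genes of known reads this was exact for 99.3% of values at P5 (111 genes) and 100% at P28 (197 of 200 solved). At 9 weeks the authors' deposited FPKM is shifted, with equal means of both code sets, so it is not plain FPKM and its depth is unknown.

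Genes with 1 CPM in at least 3 (P5), 5 (P28) or 7 (9 weeks) libraries were fitted by limma 3.58.1 (R 4.3.3) with a variance trend over all groups of an age, adjusted by the Benjamini-Hochberg method. The plan assumed Hox rows in each log2 CPM table, so the P28 FPKM fit and the 9-week permutation were chosen after seeing the data. The fit was tested on simulated data with far less spread between libraries than the Hox genes had, so that test does not cover them. Values of some genes are not reported here. Named are the 6 tested members of highest mean and the 4 of widest range, called members, and the 8 non-Hox genes that follow the Hox sum most closely. Fold changes carry standard errors, and means carry standard deviations. Wilson intervals (95%) cover counting error only, and a count of 0 is taken to allow 3 reads. Alternatives were other filters, pseudocounts, scalings, library sizes, a replicate block and leaving out libraries. No pair of P5 or P28 libraries was a copy (lowest chi-square per degree of freedom 15.9 at P5, 9.48 at P28). Same-numbered libraries deviated together in all 3 pairs (correlation 0.26 to 0.55) only for P5 p53 and Control, and the labels do not say that numbers pair. Python 3.11.15 and matplotlib 3.10.9 drew the figures.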

Additional observations from a re-analysis of the deposited data

Results flagged for a closer look

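In groups of 4 or 5 libraries, a value was singled out when its gap to the nearest library was a large share of the range of its group. Of 46 such groups 10 values were singled out. Chance gives about 1 in 20 for a group on its own, but the sum and its genes are not independent, so this rate is no measure here. All 10 values were at P28 and rest on few reads. Genes were taken on the log2 scale at P5 and as plain CPM at P28, where a high library stands out more easily. The P28 genes were also picked for their values. Rnaseh2b replicate 5 was far above the others of its group in the Hox sum (3.25 CPM), in Hoxa2 (0.44), Hoxa3 (0.44), Hoxb2 (0.452), Hoxb3 (0.487) and Hoxd3 (0.429). Rnaseh2b/Atm replicate 5 was far above its group in Hoxa2 (0.247 CPM), Hoxb2 (0.47) and Hoxb3 (0.445). Atm replicate 2 was low in the Hox sum (0).

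Hoxb7 and Hoxb8 lie outside the log2 CPM table. At P5 they had 160 and 85 reads in Rnaseh2b replicate 1, above the Control libraries at no more than 50 and 7 reads.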

How the results depend on the processing

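At P5 the count of called Hox genes was 0 in all 7 comparisons and in all 116 other settings (filters, FPKM scales, centring, trimmed-mean scaling, both groups alone, replicate block, library size, libraries left out), with a smallest limma adjusted p of 0.225. The replicate block changed no call there, with 0 Hox genes called. The median P5 fold change took the other sign in 12 settings, all in comparisons other than Rnaseh2b against Control and Rnaseh2b/Atm against Atm. In Rnaseh2b against Control it was 0.72 to 3.68 over settings, the lowest with FPKM + 1, and 1.16 to 4.595 with one library left out.

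At P28 the count of called Hox genes, 1 in each Rnaseh2b/Atm comparison, was 3 against Control with only both groups fitted and 3, other genes, when centred on the library median. Against Atm it was 2 with both groups alone, 2 with the replicate block and 6 when centred. Leaving out one library gave 1 to 2 against Control and 0 to 1 against Atm. Centring moved the median Hox difference to -0.08 against Control and -0.16 against Atm. The cause of these changes was not tested. The highest P28 sum over the median library was 9.01, and 5.88 as summed FPKM.

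The planned log2 CPM settings for P28 and 9 weeks gave no value, since those tables list no Hox gene. No Hox gene passed a filter of 0.05 FPKM at P28, although some exceeded that level in single libraries. Hoxb3, for example, had 0.164 FPKM in Rnaseh2b replicate 5 and 0.155 FPKM in Rnaseh2b/Atm replicate 5. With at most 42 reads of a member in a library, P28 values carry a wide counting error.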
